A study of Mus musculus with 114 samples.

Results

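A set of 9 genes of the cytosolic heat shock chaperone machinery was followed in adipocytes isolated from the perigonadal fat of mice kept on a chow or a high fat diet. The genes were Hspa1a, Hspa1b, Hspa8, Hsph1, Hsp90aa1, Hsp90ab1, Dnajb1, Hspb1 and Cryab, taken by symbol from a table of 29132 genes, and all 9 were among the 10343 genes with enough signal to be tested. Male C57BL/6J mice started either chow diet (CD) or a diet with 60% of its calories from fat (HFD) at 6 weeks of age and stayed on it for 8, 20 or 34 weeks, so that diet duration and age ran together in both arms. Each group held 6 mice, except CD at 34 weeks, which held 8, giving 38 mice. Perigonadal fat was digested with collagenase, and the floating adipocyte fraction was profiled by mRNA sequencing, with 1 value per gene and mouse. All 38 mice went through this digestion, so the levels are those of cells after isolation.

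Heat shock proteins are chaperones that hold, refold or hand on unfolded proteins. In the cytosol the HSP70 proteins bind short exposed stretches of a client, J-domain proteins such as DNAJB1 deliver the client and start the ATP cycle, and HSP110 proteins such as HSPH1 release the nucleotide and act together with HSP70 in disaggregation. HSP90 receives partly folded kinases and receptors from HSP70, while the small heat shock proteins HSPB1 and CRYAB bind unfolding proteins without ATP and hold them. Transcription of the inducible members is driven by heat shock factor 1 bound to repeats of the letters GAA, whereas the constitutive members are made in nearly all cells.

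The 38 libraries held 9275711 to 15480388 reads. At 8 weeks the diets did not overlap in depth, with 10562845 to 12611013 reads in CD and 13201234 to 15480388 reads in HFD, so depth and diet cannot be told apart there. The CD mice held 13091365 to 14292115 reads at 20 weeks and 9275711 to 12433584 at 34 weeks. The HFD mice held 13159018 to 14961360 and 10714545 to 12271651 reads. Depth and time thus cannot be told apart in CD from 8 to 20 weeks or from 20 to 34 weeks. The same holds in HFD for 34 weeks against 8 or 20 weeks. The summed level of 10 adipocyte markers lay between 16598 and 66729 CPM in the 38 mice, where CPM are the counts of a mouse scaled to a total of 1000000. The labelled cell type was thus present throughout. With HFD 2, 7 and 9 of the 10 were lower and 1, 1 and 0 higher at 8, 20 and 34 weeks. The fraction also held transcripts of other cells. At 8 weeks the summed level of 11 macrophage markers ranged from 349 to 1642 CPM in CD and from 976 to 2830 CPM in HFD. The ranges were 947 to 3050 and 3861 to 8142 CPM at 20 weeks, and 910 to 9791 and 4195 to 11819 CPM at 34 weeks. Of the 11 markers 6, 8 and 10 were higher and 0, 1 and 0 lower with HFD at these times. Across all genes tested, 44.9%, 57.0% and 43.2% differed in either direction by the same threshold (adjusted p under 0.05, limma). T cell, B cell and epididymis markers summed to at most 3.02, 5.82 and 9.62 CPM. In such a bulk sample, fewer cells of a type and less RNA per cell cannot be told apart. In CPM the median log2 difference between HFD and CD over all genes tested was 0.11, 0.14 and 0.07 at 8, 20 and 34 weeks. It was close to 0 when library composition was corrected by TMM factors (0.01, −0.07 and −0.01). TMM factors place the bulk of the genes near 0 by design, so these medians cannot show which scaling is right. The share of calls that were higher with HFD was 66.3%, 67.1% and 63.6% with CPM and 51.4%, 44.8% and 51.9% with TMM factors. CD mouse 5 at 34 weeks stood apart from its group, with the highest macrophage sum (9791 CPM) and the lowest adipocyte sum (29914 CPM) of the 8.

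The start regions of 4 members that hold the core letters of the heat shock element are shown here because the inducible members are classically grouped by this element. Of the 9 members, 5 had a window of 300 bases around a start site in RefSeq (250 before, 50 after, GRCm38.p6), namely Hspa1a, Hspa1b, Hsph1, Dnajb1 and Hspb1. The letters GAANNTTC, a palindrome that reads the same on both strands, occurred in the windows of Hspa1a, Hspa1b, Hspb1 and Hsph1 and not in those of Dnajb1, and in 7.86% of all 32851 windows. The longer form GAANNTTCNNGAA, sought on both strands and holding the shorter one, occurred in the Hsph1 windows only among the members and in 0.603% of all windows. In the lines that follow the matched letters are in capitals. The Hspa1a, Hspa1b and Hspb1 lines give the 250 bases before the start, and the Hsph1 line gives 30 bases around the longer match, which lies after the start.
Hspa1a, minus strand, chr17:34972157-34972406: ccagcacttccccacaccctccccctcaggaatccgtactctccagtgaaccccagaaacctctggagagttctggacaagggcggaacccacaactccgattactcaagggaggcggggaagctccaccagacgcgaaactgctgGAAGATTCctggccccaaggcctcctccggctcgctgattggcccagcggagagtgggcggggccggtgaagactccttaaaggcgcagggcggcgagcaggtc
Hspa1b, minus strand, chr17:34959239-34959488: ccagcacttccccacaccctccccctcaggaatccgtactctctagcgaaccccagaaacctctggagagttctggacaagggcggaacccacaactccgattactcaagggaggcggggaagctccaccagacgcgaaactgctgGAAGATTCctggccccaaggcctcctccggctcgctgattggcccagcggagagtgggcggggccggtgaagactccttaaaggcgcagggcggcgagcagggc
Hspb1, plus strand, chr5:135887669-135887918: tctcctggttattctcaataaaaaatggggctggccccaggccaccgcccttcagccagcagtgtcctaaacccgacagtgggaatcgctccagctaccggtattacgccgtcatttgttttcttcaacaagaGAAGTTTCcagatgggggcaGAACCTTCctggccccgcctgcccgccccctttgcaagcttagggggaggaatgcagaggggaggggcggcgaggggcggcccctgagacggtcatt
Hsph1, minus strand, chr5:149636287-149636316: agtaaaatgctgcagaTTCTGGAAAGTTCt
The Hspa1a and Hspa1b windows were nearly the same, differing at 4 of 300 bases, of which 3 lie before the start. A match of letters is a description of the sequence and not a measurement of binding.

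At 8 weeks 2 of the 9 members were higher with HFD and 0 were lower (adjusted p under 0.05, limma), where 44.9% of all genes tested were called. Cryab and Hspb1, the 2 small heat shock proteins, were the pair that passed. At 20 weeks 5 of 9 were called, Cryab, Hspb1, Hsph1 and Hsp90ab1 higher and Dnajb1 lower, against 57.0% of all genes. Tests on read counts by edgeR and DESeq2 each called 4 of 9 at 20 weeks, against 6042 and 6077 of 10343 genes. Hspa1a, Hspa1b and Cryab were among these 4, so most of the limma calls other than Cryab were not made by these tests. At 34 weeks 2 of 9, Hspa8 and Hsph1, were higher, against 43.2% of all genes. Differences are given as HFD minus CD in log2(CPM + 1), with adjusted p-values from limma over all genes tested, and gene positions are on GRCm38. The members' share of calls was below that of the table at 8 and 34 weeks and close to it at 20 weeks. The diets did not overlap between any of their mice for 0 of 9 members at 8 weeks (22.8% of all genes), for 2 of 9, Cryab and Hsp90ab1, at 20 weeks (37.2%) and for 0 of 9 at 34 weeks (2.46%). The median log2 difference of the members was 0.18, 0.54 and 0.0027 at 8, 20 and 34 weeks, beside 0.11, 0.14 and 0.07 over all genes tested.

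**Figure D1:**
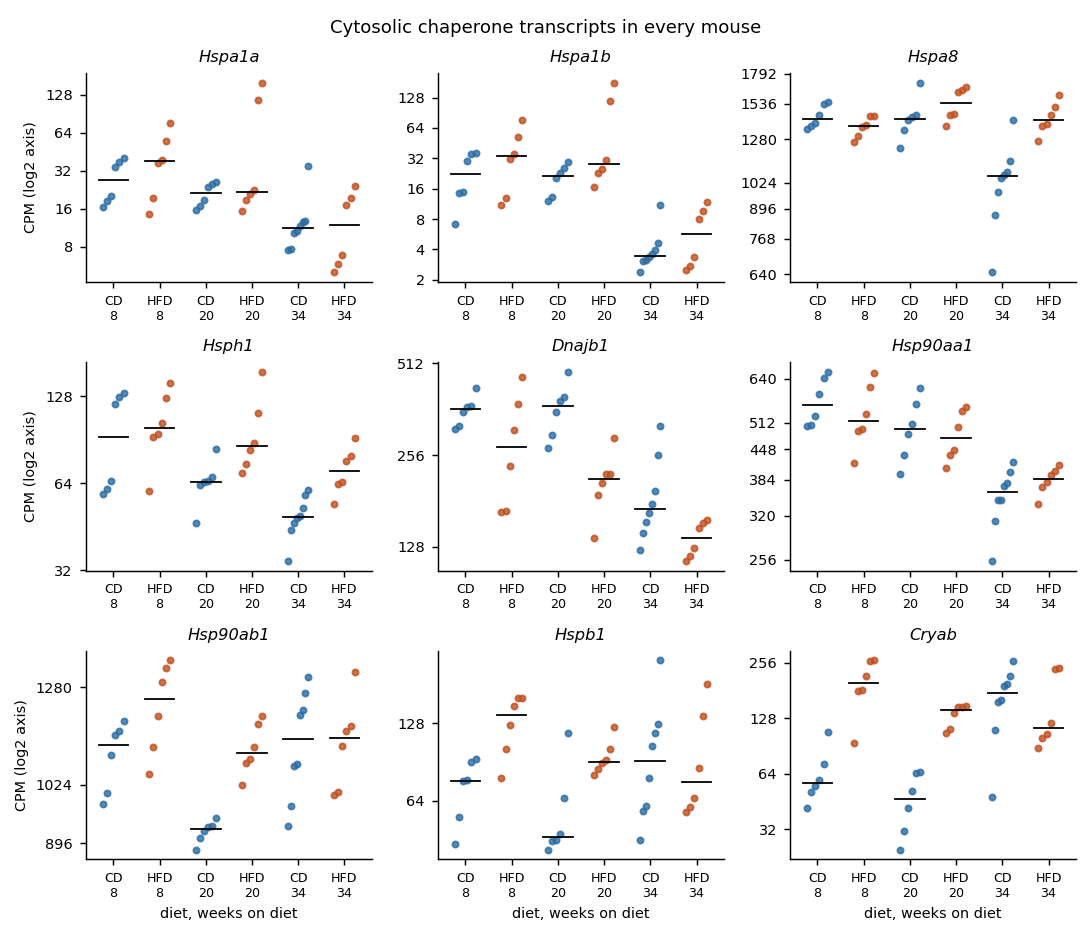
Level of each of the 9 chaperone genes in every mouse, in CPM on a log2 axis, with the mice of a group sorted and a black line at the group median. Cryab lies between 24.7 and 65.4 CPM in CD and between 107 and 149.8 CPM in HFD at 20 weeks, and Hspa1a reaches 116 and 159 CPM in 2 HFD mice at 20 weeks.

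**Figure D2:**
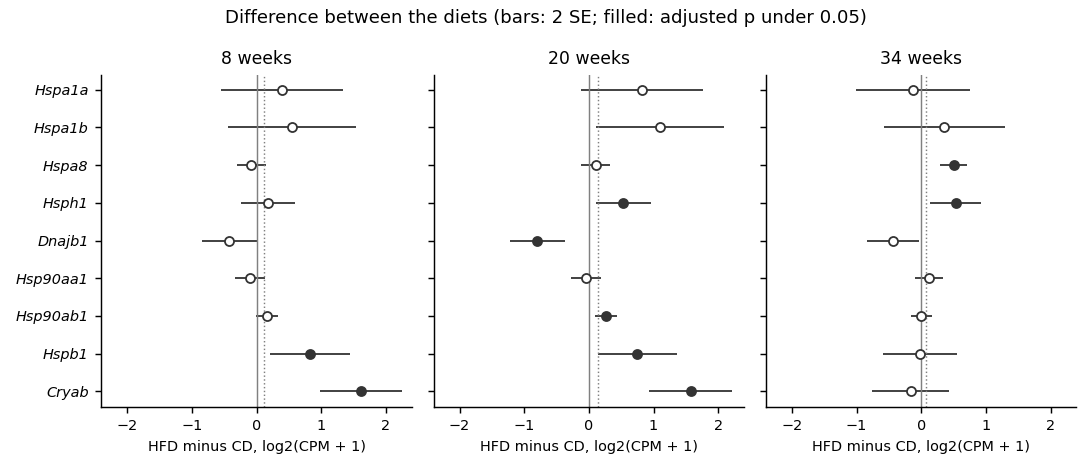
Difference between HFD and CD in log2(CPM + 1) for each gene at 8, 20 and 34 weeks, with bars of 2 standard errors, filled points where the adjusted p was under 0.05 and a dotted line at the median of all genes tested. Cryab stands at 1.61 and 1.57 at 8 and 20 weeks and at −0.16 at 34 weeks.

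The small heat shock proteins gave the largest diet differences of the 9 members at 8 weeks. Cryab, the αB-crystallin that is abundant in lens and muscle and binds desmin and actin, lies at chr9:50745951-50756636. At 8 weeks its level was 41.6 CPM in the lowest, 57.0 CPM in the median and 108 CPM in the highest CD mouse, and 93.6, 199.7 and 264 CPM in HFD mice. All but 1 HFD mouse lay above every CD mouse. The fitted difference was 1.61 on the log2 scale (SE 0.32, adjusted p = 0.0001848), a fold of 3.06. At 20 weeks the CD mice spanned 24.7 to 65.4 CPM with a median of 46.7, the HFD mice 107 to 149.8 CPM with a median of 142, and the groups did not overlap (log2 difference 1.57, SE 0.32, adjusted p = 9.252e-05, fold 2.97). At 34 weeks the picture differed: CD mice ran from 48.0 to 263 CPM with a median of 177, and HFD mice from 88.7 to 239 CPM with a median of 113. All HFD mice then lay inside the CD range, and the difference of −0.16 (95% interval −0.75 to 0.44) did not pass. The change of the diet difference itself passed, by −1.77 from 8 to 34 weeks (SE 0.44, adjusted p = 0.002901) and by −1.73 from 20 to 34 weeks (SE 0.44, adjusted p = 0.01027). In CD mice Cryab rose by 1.78 from 20 to 34 weeks (SE 0.30, adjusted p = 6.297e-06), with 7 of 8 mice above every mouse at 20 weeks.

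The mouse that did not take part in this rise was CD mouse 5 at 34 weeks, the animal with the highest macrophage sum of its group: its Cryab was 48.0 CPM, against 111 to 263 CPM in the other 7. Without it the difference at 34 weeks was −0.39 (adjusted p = 0.2103) and the rise from 20 to 34 weeks was 2.01. In HFD mice at 34 weeks, mice 1 and 6 held 239 and 239 CPM of Cryab and the other 4 held 88.7 to 121 CPM. Mice 1 and 6 also had the lowest macrophage sums of their group, 5542 and 4195 CPM, where the other 4 had 8381 to 11819 CPM. Other mice did not follow this. CD mouse 6 at 34 weeks had the lowest macrophage sum of its group, 910 CPM, and 111 CPM of Cryab, the lowest but for mouse 5. HFD mouse 3 at 8 weeks had the highest sum of its group, 2830 CPM, and 263 CPM of Cryab. Over the 38 mice, with group means removed, the macrophage mean had r of −0.23 with Cryab. With the mean of the macrophage markers added to the fit the Cryab difference was 0.09 at 34 weeks. It remained past the threshold at 8 and 20 weeks, and the part of other cells in the levels was not tested further. With this mean in the fit 3928, 3281 and 841 of the 10343 genes tested were called at 8, 20 and 34 weeks. Without it 4648, 5894 and 4468 were called, so many genes lost their call with it. The macrophage mean itself differed between the diets, at 6.15 in CD and 8.01 in HFD at 20 weeks on the log2 scale. Markers of endothelial cells (9, 6 and 8 of 9), progenitors and fibroblasts (4, 7 and 3 of 7) and mural cells (5, 4 and 3 of 6) were also higher with HFD at 8, 20 and 34 weeks. Across all genes tested, 44.9%, 57.0% and 43.2% were called in either direction, near the progenitor and mural shares at 34 weeks. Higher calls were made for 0 of 2 tested skeletal muscle markers, with a summed muscle level of 28.6 to 228 CPM. The part of these cells in the Cryab levels was not tested. Of the exon bases of Cryab, 252 (17.0%) are shared with Hspb2 on the opposite strand, and whether the counting used strand is not given in the sources used here. Hspb2 itself was low, between 0.382 and 9.89 CPM over the 38 mice.

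Hspb1, a small heat shock protein that also caps actin filaments, lies at chr5:135887919-135889563. At 8 weeks it was at 43.4, 76.5 and 93.1 CPM in the lowest, median and highest CD mouse and at 78.3, 138 and 161 CPM in HFD. All but 1 HFD mouse, mouse 2, lay above every CD mouse. The difference was 0.83 (SE 0.31, adjusted p = 0.02773). The call at 8 weeks was lost without any 1 of CD mice 4 and 5 or HFD mice 1, 4 and 5 (0.69 to 0.78, adjusted p 0.0508 to 0.0786) and in edgeR (0.73, adjusted p = 0.0557). At 20 weeks the CD mice spanned 41.1 to 117 CPM around a median of 46.2, and the HFD mice 80.2 to 124 CPM around 90.8. All 6 HFD mice lay above the CD mean, and 1 lay above every CD mouse (difference 0.75, SE 0.31, adjusted p = 0.03634). That call was lost without any 1 of CD mice 2 to 5 or HFD mice 5 and 6 (0.66 to 0.73, adjusted p 0.0591 to 0.0820), and it did not pass with TMM factors (0.54, adjusted p = 0.118) or with the macrophage mean in the fit (0.86, adjusted p = 0.0803). At 34 weeks the levels were 45.0 to 225 CPM in CD and 57.6 to 182 CPM in HFD, and the difference of −0.02 had a 95% interval of −0.60 to 0.55.

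Hspa1a and Hspa1b, the stress-inducible HSP70 pair, were the members with the widest spread between mice of a group. They lie next to each other at chr17:34969359-34972156 and chr17:34956429-34959238. At 8 weeks Hspa1a was at 16.5, 27.2 and 40.0 CPM in the lowest, median and highest CD mouse and at 14.5, 37.95 and 76.9 CPM in HFD. Hspa1b was at 7.18, 22.4 and 35.7 CPM and at 11.1, 33.5 and 77.1 CPM. The diets overlapped, with differences of 0.40 (adjusted p = 0.5057) for Hspa1a and 0.55 (adjusted p = 0.3747) for Hspa1b. In CD mice at 8 weeks the level split the animals: mice 1, 3 and 6 held 34.3 to 40.0 CPM of Hspa1a, 29.9 to 35.7 CPM of Hspa1b and 120.1 to 131 CPM of Hsph1, while mice 2, 4 and 5 held 16.5 to 20.1, 7.18 to 14.9 and 58.5 to 65.0 CPM. The same 3 mice were high for all 3 genes.

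At 20 weeks the CD mice were close together, at 15.7 to 26.2 CPM of Hspa1a and 12.2 to 29.4 CPM of Hspa1b. Among the HFD mice, 4 lay in or near that range, at 15.5 to 22.6 CPM of Hspa1a and 16.5 to 31.0 CPM of Hspa1b. Mice 5 and 6 held 116 and 159 CPM of Hspa1a and 119 and 179 CPM of Hspa1b. The differences were 0.82 for Hspa1a (SE 0.47, 95% interval −0.12 to 1.76, adjusted p = 0.1366) and 1.10 for Hspa1b (SE 0.50, adjusted p = 0.05739), and neither passed. Counts of reads tested by edgeR (1.27, adjusted p = 0.0288 and 1.46, adjusted p = 0.0174) and DESeq2 (1.32, adjusted p = 0.0138 and 1.502, adjusted p = 0.00759) passed for both genes. For Hspa1b the call also appeared in the limma fit when HFD mouse 1, 3 or 4 was left out (1.25 to 1.37, adjusted p 0.0209 to 0.0422) and with array weights (1.14, adjusted p = 0.02459). Without HFD mouse 5 or 6 the difference was 0.50 or 0.41 for Hspa1a and 0.81 or 0.70 for Hspa1b. With the macrophage mean in the fit it was 0.19 for Hspa1a (adjusted p = 0.8228) and 0.40 for Hspa1b (adjusted p = 0.6352), and with TMM factors 0.61 (adjusted p = 0.2624) and 0.89 (adjusted p = 0.1169). Mouse 5 had the highest macrophage sum of its group, 8142 CPM, and mouse 6 a middling one, 5709 CPM.

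At 34 weeks both genes were low in both diets. Hspa1a was at 7.57, 11.2 and 34.9 CPM in the lowest, median and highest CD mouse and at 5.01, 11.9 and 24.0 CPM in HFD. Hspa1b was at 2.37, 3.48 and 11.1 CPM and at 2.52, 5.71 and 11.8 CPM. The diets overlapped (−0.12, adjusted p = 0.8356, and 0.36, adjusted p = 0.5446). The highest CD mouse was mouse 5 for both genes. Without it the difference of Hspa1a was 0.09 and that of Hspa1b 0.54. Within HFD, mice 2, 3 and 4 held the higher levels of both genes, 17.0 to 24.0 CPM and 8.08 to 11.8 CPM, and also the highest macrophage sums, 9976 to 11819 CPM, while the other 3 held 5.01 to 6.85 CPM and 2.52 to 3.34 CPM.

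How the pair shared their level also varied. The transcripts are alike: 2514 of 2771 aligned bases (90.7%) are the same. Of the 2893 stretches of 75 bases in Hspa1a, 1524 (52.7%) occur unchanged in Hspa1b. The 75 bases were a choice and need not be the read length. A read lying wholly inside such a stretch cannot be told apart by its own letters, so the split between the genes is uncertain. Hspa1a also shares 564 exon bases (19.0%) with Gm20481 on the opposite strand. Hspa1a made up 46.1% to 56.4% of the summed CPM of the pair in CD mice at 20 weeks and 42.1% to 49.3% in HFD mice, and 70.9% to 84.4% and 62.1% to 74.8% at 34 weeks. At 8 weeks the shares were 51.6% to 69.7% in CD and 49.9% to 63.7% in HFD. Within each diet the mice at 34 weeks did not overlap with those at 20 weeks. With the reads of the pair summed before the fit, the diet difference at 34 weeks was 0.02.

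**Figure D3:**
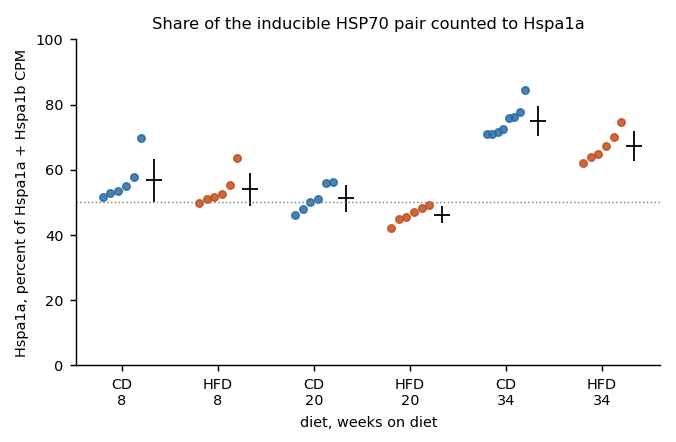
Share of Hspa1a in the summed CPM of Hspa1a and Hspa1b, in percent, for every mouse of the 6 groups, with a cross at the mean and bars of 1 SD and a dotted line at equal shares. The 34 week groups, with means of 74.99% in CD and 67.2% in HFD, lie above the 20 week groups, with means of 51.3% and 46.2%.

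Hspa8, the constitutive HSP70 that also serves clathrin uncoating and chaperone-mediated autophagy, lies at chr9:40801276-40805202. At 8 weeks its level ran from 1350.0 to 1545 CPM in CD around a median of 1422 and from 1261 to 1441 CPM in HFD around 1367, and at 20 weeks from 1225 to 1710 CPM around 1423 and from 1372 to 1669 CPM around 1541. The diets overlapped at both times, with differences of −0.08 (SE 0.11, adjusted p = 0.5800) and 0.11 (SE 0.11, adjusted p = 0.4228). With the macrophage mean in the fit the difference at 8 weeks was −0.27 and passed (adjusted p = 0.03053), and that at 20 weeks was −0.18. At 34 weeks the CD mice spanned 647 to 1414 CPM around 1060 and the HFD mice 1270 to 1609 CPM around 1414. All 6 HFD mice lay above the CD mean and 3 above every CD mouse. Hspa8 was higher with HFD by 0.50 (SE 0.10, adjusted p = 0.0004376). It was the CD mice that differed over time: Hspa8 fell by 0.51 from 8 to 34 weeks in CD (SE 0.10, adjusted p = 8.859e-05), and the diet difference grew by 0.58 between these times (SE 0.15, adjusted p = 0.004996). The highest CD mouse at 34 weeks was again mouse 5, with 1414 CPM against 647 to 1142 CPM in the other 7. The lowest, mouse 6, had the lowest macrophage sum of its group, 910 CPM. Without mouse 5 the diet difference was 0.57 (adjusted p = 2.281e-05). With the macrophage mean in the fit it was 0.27 and did not pass (adjusted p = 0.0735). Of the Hspa8 exon bases, 86, 86 and 90 are shared with the small nucleolar RNAs Snord14c, Snord14d and Snord14e on the same strand.

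Hsph1, the inducible HSP110 that exchanges nucleotide on HSP70, lies at chr5:149616843-149636498. At 8 weeks it was at 58.5, 92.6 and 131 CPM in the lowest, median and highest CD mouse and at 60.4, 99.3 and 143 CPM in HFD, with overlapping diets (0.18, adjusted p = 0.5072). At 20 weeks the CD mice held 46.5, 64.9 and 84.2 CPM and the HFD mice 69.3, 86.0 and 156 CPM. All HFD mice lay above the CD mean and 3 of 6 above every CD mouse. The difference was 0.54 (SE 0.21, adjusted p = 0.03051). The 2 highest HFD mice were mice 5 and 6, at 112 and 156 CPM, the same animals that were high for Hspa1a and Hspa1b. The call was lost without HFD mouse 5, HFD mouse 6 or CD mouse 2 (0.39 to 0.48, adjusted p 0.0665 to 0.117) and with TMM factors (0.32, adjusted p = 0.191) or the macrophage mean (0.42, adjusted p = 0.223). At 34 weeks the CD mice held 34.4, 48.9 and 60.6 CPM and the HFD mice 54.4, 70.7 and 91.8 CPM. All but 1 HFD mouse lay above every CD mouse (difference 0.53, SE 0.20, adjusted p = 0.02936). This call was lost without CD mouse 6 or HFD mouse 2, 3 or 4 (0.46 to 0.51, adjusted p 0.0610 to 0.0781) and with TMM factors (0.44, adjusted p = 0.0674), array weights (0.39, adjusted p = 0.225) or the macrophage mean (0.44, adjusted p = 0.240).

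Dnajb1, the J-domain protein that brings clients to HSP70 and is itself heat inducible, was the member that was lower with HFD. It lies at chr8:83608175-83612653. At 20 weeks it was at 271, 369.8 and 482 CPM in the lowest, median and highest CD mouse and at 136, 214 and 292 CPM in HFD. All but 1 HFD mouse, mouse 4, lay below every CD mouse. The difference was −0.80 (SE 0.21, adjusted p = 0.001962), a fold of 0.576. At 8 weeks the CD mice were close together, at 312, 362 and 424 CPM, and the HFD mice far apart, at 166, 272 and 462 CPM. HFD mouse 2 was the highest of all 12 mice and was also the lowest HFD mouse for Cryab (93.6 CPM) and Hspb1 (78.3 CPM). The difference at 8 weeks was −0.42 (SE 0.21, adjusted p = 0.1064) and without that mouse −0.58 (adjusted p = 0.02253), and with array weights, which give variable mice less weight, −0.73 (adjusted p = 0.00028). At 34 weeks the CD mice held 125, 171 and 318 CPM and the HFD mice 115, 137 and 157 CPM. All HFD mice lay below the CD mean (difference −0.44, SE 0.20, adjusted p = 0.07495). Without CD mouse 7 the difference was −0.51 (adjusted p = 0.03638), with TMM factors −0.53 (adjusted p = 0.0394) and in DESeq2 −0.58 (adjusted p = 0.0180). With the macrophage mean in the fit, the difference at 20 weeks was −0.57 and did not pass (adjusted p = 0.0877).

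The 2 cytosolic HSP90 genes differed in what they did. Hsp90aa1, the inducible isoform, lies at chr12:110691036-110696395 and showed no diet difference that passed. At 8 weeks it was at 503, 561 and 663 CPM in the lowest, median and highest CD mouse and at 419, 516 and 658 CPM in HFD. At 20 weeks it was at 396, 496 and 609 CPM and at 408, 474 and 555 CPM, and at 34 weeks at 254, 360.0 and 421 CPM and at 339, 386 and 413 CPM. The diets overlapped at each time. The differences were −0.10, −0.04 and 0.12, with 95% intervals of −0.34 to 0.13, −0.28 to 0.19 and −0.09 to 0.34. Hsp90ab1, the constitutive isoform at chr17:45567778-45573261, was the least variable member between mice of a group. At 20 weeks it was at 883, 926 and 949 CPM in CD and at 1023, 1101 and 1197 CPM in HFD, with no overlap and a difference of 0.27 (SE 0.09, adjusted p = 0.007466). That difference depended on the scaling, at 0.05 with TMM factors (adjusted p = 0.657) and 0.10 with median-of-ratios size factors (adjusted p = 0.387). The call was also lost with the macrophage mean in the fit. At 8 weeks the CD mice held 980, 1123 and 1184 CPM and the HFD mice 1051, 1246 and 1360.3 CPM. Of the HFD mice 4 of 6 lay above every CD mouse (0.16, adjusted p = 0.1245). At 34 weeks the medians were 1138 CPM in CD and 1139 CPM in HFD, and the difference of 0.0027 had a 95% interval of −0.16 to 0.16.

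Per kilobase of exon, Hsp90ab1 and Hspa8 held the first 2 places of the 9 in all 6 groups. In CD mice at 8 weeks their mean levels were 365 and 335 CPM per kb, and the mice of the 2 genes overlapped in 5 of the 6 groups, the exception being HFD at 8 weeks. Hsp90aa1 (146 CPM per kb), Dnajb1 (112), Hspb1 (70.4) and Cryab (43.6) followed in CD mice at 8 weeks, with Hsp90aa1 and Dnajb1 overlapping and Hspb1 and Cryab overlapping. The last 3 places in every group belonged to Hsph1, Hspa1a and Hspa1b, at 12.9, 9.38 and 8.19 CPM per kb in that group, and they overlapped with each other there. The gene that changed place most was Cryab: it stood at place 6 in CD at 8 and 20 weeks, with 43.6 and 31.5 CPM per kb, at places 4 and 5 in HFD at these times, with 135 and 90.3 CPM per kb, and at place 3 in both diets at 34 weeks, with 114 and 101 CPM per kb. In every group its mice overlapped with those of a gene at a neighbouring place, so these places are not sharply separated.

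Time on the diet, which is also age, was then compared within each diet. Mice were harvested at the end of their own time point, so duration, age and harvest cannot be told apart. Depth also differed between most of these times, as given above. In CD mice 0 of 9 passed between 8 and 20 weeks, where 3.58% of all genes did, 2 had an unadjusted p under 0.05, and edgeR and DESeq2 called 0. Between 20 and 34 weeks 7 of 9 CD members were called, 3 higher and 4 lower, against 62.5% of all genes. Between 8 and 34 weeks it was 7 of 9, 1 higher and 6 lower, against 64.7%. In HFD mice 0 of 9 passed between 8 and 20 weeks, where 36.5% of all genes did, 0 had an unadjusted p under 0.05, and edgeR and DESeq2 called 0. Between 20 and 34 weeks 4 of 9 were called in HFD, all lower, against 30.2% of all genes. Between 8 and 34 weeks it was 5 of 9, all lower, against 52.5%. The median log2 difference of the members from 8 to 34 weeks was −0.70 in CD and −0.49 in HFD, where that of all genes tested was 0.13 and 0.06. These comparisons share groups, so they are not independent of each other.

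The genes that fell in both diets between 8 and 34 weeks were Hspa1a, Hspa1b, Hsph1, Hsp90aa1 and Dnajb1. Hspa1b fell by 2.07 in CD (SE 0.47, adjusted p = 0.0002705) and by 2.26 in HFD (SE 0.50, adjusted p = 0.0003351). Between 20 and 34 weeks its mice did not overlap in either diet. Hspa1a fell by 1.06 in CD (SE 0.44, adjusted p = 0.03536) and by 1.58 in HFD (SE 0.47, adjusted p = 0.005537). The CD call was lost without any 1 of CD mice 1, 3 and 6 at 8 weeks or CD mice 2, 3 and 7 at 34 weeks (−1.03 to −0.94, adjusted p 0.0511 to 0.0804). Hsp90aa1 fell by 0.70 in CD (SE 0.11, adjusted p = 2.214e-06) and by 0.47 in HFD (SE 0.12, adjusted p = 0.001098), with no overlap of the mice at 8 and 34 weeks in either diet. Dnajb1 fell by 0.96 in CD (SE 0.20, adjusted p = 0.000115) and by 0.97 in HFD (SE 0.21, adjusted p = 0.0003321), and the HFD mice at the 2 times did not overlap. Hsph1 fell by 0.84 in CD (SE 0.20, adjusted p = 0.0004189) and by 0.49 in HFD (SE 0.21, adjusted p = 0.0497). The HFD call was lost when any of 24 of the 38 mice was left out (−0.51 to −0.39, adjusted p 0.0501 to 0.137). Of the macrophage markers 9 of 11 were higher at 34 than at 8 weeks in CD, and 10 of 11 higher and 1 lower in HFD. Of all genes tested, 64.7% and 52.5% were called in either direction. Within groups the macrophage mean had r of 0.31 with Hspa1a, 0.33 with Hspa1b, 0.13 with Hsph1, −0.09 with Hsp90aa1 and −0.25 with Dnajb1. The part of macrophages in the falls was not tested beyond the fit with the mean of their markers. Under that fit the Hsph1 call in HFD was lost and the other calls of these falls were kept.

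**Figure D4:**
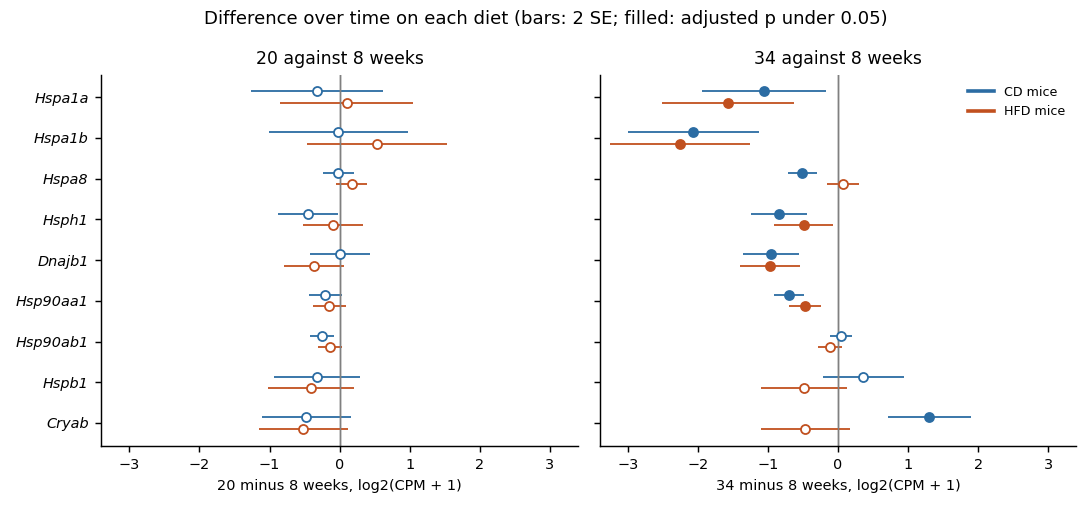
Differences of 20 and of 34 weeks from 8 weeks in log2(CPM + 1), in CD and in HFD mice, for the 9 genes, with bars of 2 standard errors and filled points where the adjusted p was under 0.05. The points at 34 weeks lie below 0 for Hspa1a, Hspa1b, Hsph1, Hsp90aa1 and Dnajb1 in both diets, and Cryab is at 1.30 in CD.

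Between 20 and 34 weeks in HFD the falls were 2.79 for Hspa1b (SE 0.50, adjusted p = 0.0001603), 1.68 for Hspa1a (SE 0.47, adjusted p = 0.008166), 0.60 for Dnajb1 (SE 0.21, adjusted p = 0.03087) and 0.33 for Hsp90aa1 (SE 0.12, adjusted p = 0.03341). The last 2 calls were lost without any 1 of HFD mice 4 to 6 at 20 weeks, Dnajb1 also without HFD mouse 2 or 5 and Hsp90aa1 also without HFD mouse 1 or 4 at 34 weeks (Dnajb1 −0.58 to −0.50, adjusted p 0.0506 to 0.0915; Hsp90aa1 −0.32 to −0.28, adjusted p 0.0634 to 0.0815). In CD between 20 and 34 weeks Hspa1b fell by 2.05, Dnajb1 by 0.96, Hsp90aa1 by 0.49 and Hspa8 by 0.49, with adjusted p-values from 0.0001117 to 0.0003227. Over the same interval in CD, Cryab rose as given above, Hspb1 rose by 0.68 (SE 0.29, adjusted p = 0.03795) and Hsp90ab1 by 0.29 (SE 0.08, adjusted p = 0.002456). The rise of Hspb1 was lost without any 1 of CD mice 2 to 5 at 20 weeks or CD mice 1, 2, 3 and 7 at 34 weeks (0.50 to 0.66, adjusted p 0.0562 to 0.109). That of Hsp90ab1 was lost with TMM factors (0.13, adjusted p = 0.234). Without CD mouse 2 at 20 weeks Hsph1 also passed (−0.48, adjusted p = 0.0428).

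Whether the diet difference itself changed was tested for each pair of times. From 8 to 20 weeks 0 of 9 members passed, where 4.49% of all genes did, 0 had an unadjusted p under 0.05, and edgeR and DESeq2 called 0. From 20 to 34 weeks 1 of 9, Cryab, passed, against 10.5% of all genes, and from 8 to 34 weeks 2 of 9, Cryab and Hspa8, against 28.8%. Without CD mouse 5 at 34 weeks Hspa8 also passed from 20 to 34 weeks (0.46, adjusted p = 0.0253). Without HFD mouse 6 at 34 weeks Hspb1 passed from 8 to 34 weeks (−1.06, adjusted p = 0.0452).

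The members differed in how steady they were between mice. The SD between mice of a group, on the log2(CPM + 1) scale, was 0.90 for Hspa1b and 0.85 for Hspa1a, above that of 98.2% and 97.2% of all genes tested, 0.57 for Cryab, 0.55 for Hspb1, 0.38 for Dnajb1 and 0.38 for Hsph1. It was 0.20 for Hsp90aa1, 0.18 for Hspa8 and 0.13 for Hsp90ab1, and the median of all genes tested was 0.25. With the group means removed, the closest members over the 38 mice were Hspa1a and Hspa1b (Pearson r = 0.95), then Hspa1b and Hsph1 (0.76), Hspb1 and Cryab (0.72), Hsph1 and Hsp90aa1 (0.68) and Hspa1a and Hsph1 (0.63). Against Cryab, Hspa1a and Dnajb1 had r of −0.33 and −0.32. The mean of the macrophage markers had r of 0.67 with Hspa8, 0.33 with Hspa1b, 0.31 with Hspa1a, −0.25 with Dnajb1 and −0.23 with Cryab. The mean of 20 immediate early genes, which rise within minutes of many stimuli, had 0.64 with Hspa8, 0.40 with Dnajb1 and −0.42 with Cryab. These values describe mice that share a library preparation and a common total of reads, and the split of reads within the Hspa1a and Hspa1b pair alone can tie the 2 genes together.

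**Figure D5:**
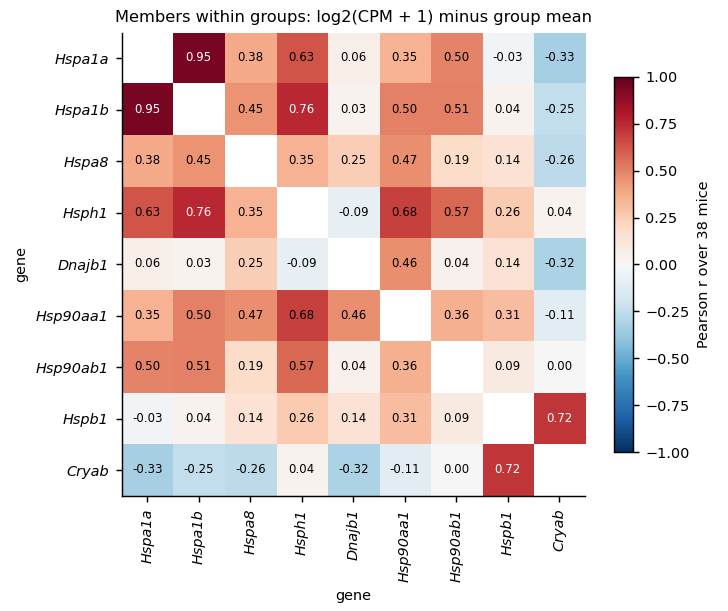
Pearson correlation between each pair of the 9 genes over 38 mice, from log2(CPM + 1) after the mean of each group was removed, with both axes listing the genes and the colour scale running from −1 to 1. Hspa1a, Hspa1b, Hsph1, Hsp90aa1, Hsp90ab1 and Hspa8 are positive with each other, from 0.19 to 0.95, and Hspb1 and Cryab stand at 0.72.

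The genes most like each member within groups, among all genes tested, were sought by the same correlation. Apart from Hspa1b and Hsph1, the nearest to the inducible HSP70 genes were Vbp1, a prefoldin subunit (0.66 with Hspa1a), Ppp1r15a, the stress-induced subunit of the phosphatase that acts on eIF2α (0.63 with Hspa1a), and Cnot6l, a deadenylase (0.65 with Hspa1b). Hsp90ab1 was nearest to Cct3, a subunit of the cytosolic chaperonin (0.63), Hnrnpab (0.63) and Psmc6, a proteasome ATPase (0.62). Cryab was nearest to Htra1, a secreted protease (0.91), Matn2, a matrix protein (0.91), and Chpf, of chondroitin synthesis (0.89), and Hspb1 to Enho (0.85), Cystm1 (0.80) and Rtn2 (0.78). Hspa8 was nearest to Rab20 (0.86), Ets2 (0.85) and Litaf (0.85), and Dnajb1 to Eif4a2 (0.81), Btg1 (0.78) and Rdm1 (0.75). Hsph1 stood nearest to Utp14b (0.71) after Hspa1b, and Hsp90aa1 to Nop58 (0.71), Il17ra (0.70) and Clic4 (0.69).

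Among the heat shock factors, Hsf1, the main stress factor, was at 21.6 ± 2.61 CPM in CD and 19.9 ± 4.42 CPM in HFD at 8 weeks (SD, n = 6 and 6), and HFD minus CD was −0.13 at 8 weeks (adjusted p = 0.4024), 0.10 at 20 weeks (adjusted p = 0.5113) and 0.25 at 34 weeks (adjusted p = 0.07877). Hsf2, its relative, was at 26.0 ± 5.70 CPM in CD and 16.2 ± 2.63 CPM in HFD at 20 weeks, without overlap (−0.64, SE 0.11, adjusted p = 1.868e-05), and differed by 0.03 and −0.01 at 8 and 34 weeks (adjusted p = 0.8256 and 0.9471). Across all genes tested, 44.9%, 57.0% and 43.2% were called in either direction at 8, 20 and 34 weeks. Of the 4 factors and regulators tested of 5 listed, 1, 0 and 0 were higher and 0, 1 and 0 lower with HFD at these times. The other was Hsbp1 (0.33, adjusted p = 0.004939), a call that TMM factors did not keep (0.22, adjusted p = 0.07424).

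Genes that work with HSP70 were called in both directions. Of 10 HSP70 nucleotide exchange factors and co-chaperones, 2, 3 and 0 were higher and 2, 3 and 2 lower with HFD at 8, 20 and 34 weeks, where 44.9%, 57.0% and 43.2% of all genes were called in either direction. With TMM factors 1, 1 and 0 were higher and 2, 5 and 2 lower. With the macrophage mean in the fit 1, 0 and 0 were higher and 1, 1 and 0 lower, where 3928, 3281 and 841 of all 10343 genes were called. Bag3, the exchange factor that links HSP70 to small heat shock proteins and autophagy, was lower at 8 weeks, with mean levels of 143 CPM in HFD and 287 CPM in CD and no overlap (−1.03, SE 0.15, adjusted p = 3.395e-06), and this call held with the macrophage mean in the fit (−1.01, adjusted p = 2.214e-05). Hspb8, the small heat shock protein that BAG3 binds, was lower at all 3 times (−0.75, −1.25 and −0.84, adjusted p = 0.01201, 4.936e-05 and 0.003463). None of the 3 Hspb8 calls passed with the macrophage mean in the fit. Bag4, another exchange factor, was lower at 20 weeks (−1.01, adjusted p = 7.326e-06) and 34 weeks (−0.74, adjusted p = 0.0005293), the latter not with the macrophage mean in the fit. Bag2, whose protein inhibits the ubiquitin ligase CHIP, was higher at 8 weeks (0.51, adjusted p = 0.003058) at mean levels of 5.39 and 3.48 CPM. Hspbp1 was higher at 20 weeks (0.48, adjusted p = 0.0005284), a call not kept with the macrophage mean (0.33, adjusted p = 0.05624). Of the 7 other HSP70 and HSP110 genes, 3, 5 and 1 were higher and none was lower. With TMM factors 2, 2 and 0 were higher. The largest were Hspa4l at 8 weeks (0.76, adjusted p = 1.382e-05), Hspa12a at 20 weeks (0.63, adjusted p = 0.02835) and Hspa4 at 34 weeks (0.16, adjusted p = 0.02662), the last 2 not past the threshold with TMM factors.

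The share of all genes called in either direction was again 44.9%, 57.0% and 43.2% at 8, 20 and 34 weeks. With the macrophage mean in the fit 3928, 3281 and 841 of all 10343 genes were called. Of 14 other cytosolic J-domain genes, 2, 3 and 7 were higher and 4, 2 and 1 lower. With TMM factors 1, 0 and 2 were higher and 6, 4 and 1 lower. The balance thus turned with the scaling at 20 weeks, and kept its direction at 8 and 34 weeks. Dnajb14 was the largest riser at 8 weeks (0.46, adjusted p = 0.0001785) and Dnajb4, close in sequence to Dnajb1, was lower there (−0.47, adjusted p = 0.02402), with 250 and 337 CPM in HFD and CD. The Dnajb4 call was lost with the macrophage mean (−0.45, adjusted p = 0.05624) and without any 1 of 5 mice. Dnajb2 was lower at 20 and 34 weeks (−0.57 and −0.43, adjusted p = 0.002173 and 0.01538), and the largest risers at these times were Dnajc2 (0.31, adjusted p = 0.004572) and Dnajc13 (0.37, adjusted p = 0.01243). None of these 4 calls held with the macrophage mean in the fit. Of 15 HSP90 co-chaperones, 4, 5 and 2 were higher and 3, 4 and 0 lower (with TMM factors 4, 2 and 2 higher and 5, 7 and 2 lower). Ahsa1, the activator of the HSP90 ATPase, was higher at 8 and 20 weeks without overlap (0.60 and 0.72, adjusted p = 1.616e-05 and 3.916e-07). Fkbp5, the glucocorticoid-induced immunophilin, was lower at both (−1.09 and −0.996, adjusted p = 0.008395 and 0.01091), with 68.0 against 152 CPM at 8 weeks, and the call at 20 weeks was lost with the macrophage mean (−0.92, adjusted p = 0.08572). Cdc37, the kinase adaptor of HSP90, was higher at 34 weeks without overlap (0.30, adjusted p = 0.0002821).

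For the lists that follow, the share of all genes called in either direction was 44.9%, 57.0% and 43.2% at 8, 20 and 34 weeks. With the macrophage mean in the fit 3928, 3281 and 841 of all 10343 genes were called. Of the other small heat shock proteins, 4 of 7 were tested, and 3, 2 and 0 were higher and 1, 1 and 1 lower with HFD. The largest riser was Hspb7 (1.68 at 8 weeks, adjusted p = 0.01044, and 1.53 at 20 weeks, adjusted p = 0.01406), which did not pass at either time with the macrophage mean in the fit. Of the 8 CCT chaperonin subunits 2, 3 and 0 were higher, Tcp1 by 0.27 and 0.25 at 8 and 20 weeks (adjusted p = 0.002215 and 0.002711). With TMM factors 0, 0 and 0 were higher and 0, 1 and 0 lower. Of 7 mitochondrial chaperones 1, 1 and 0 were higher and 1, 4 and 5 lower. With TMM factors 0, 0 and 0 were higher and 1, 5 and 5 lower, and with the macrophage mean in the fit 3, 0 and 0 were higher and 0, 1 and 0 lower. Trap1 differed by −0.59 at 20 weeks (adjusted p = 0.0005397) and Hspe1 by −0.52 at 34 weeks (adjusted p = 0.002782). Neither passed with the macrophage mean in the fit. At 8 weeks Hspe1 was higher (0.36, adjusted p = 0.04043) and Dnaja3 lower (−0.30, adjusted p = 0.01792). At 20 weeks Grpel2 was higher (0.30, adjusted p = 0.02874), and each of these calls was lost under at least 1 other setting. Of 20 immediate early genes 6, 8 and 2 were higher and 4, 3 and 2 lower. With TMM factors 3, 7 and 1 were higher and 4, 4 and 4 lower, and with the macrophage mean in the fit 1, 1 and 0 were higher and 4, 3 and 0 lower. Fos was higher at 8 and 20 weeks (1.39 and 1.49, adjusted p = 9.561e-05 and 1.229e-05), with mean levels of 1018 against 369 CPM at 8 weeks, while Fosb was lower (−0.81 and −0.99, adjusted p = 0.01789 and 0.003027). At 34 weeks Dusp1 was higher (0.94, adjusted p = 0.005228) and Ier2 lower (−0.67, adjusted p = 0.0181), neither with the macrophage mean in the fit.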

How the data were processed

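Adipocyte RNA of 38 mice was sequenced from TruSeq stranded mRNA libraries, with 114 labelled samples giving 3 technical replicates per mouse, which the table holds as 1 column per mouse. Per the labels and the methods of the study, the authors aligned reads to mm10 (GRCm38) with STAR (2.5 and 2.5.2b are both named), counted them with featureCounts of Subread 1.5.1 and deposited CPM (counts scaled to a common total), 1 value per gene and mouse. The study's methods state that CPM were computed with TMM normalisation factors, but the deposited columns each summed to 1000000, so they were used as plain CPM and TMM factors were applied as an alternative. Per these methods reads were counted where they overlapped 1 gene unambiguously. The strand and multiple-mapping settings of the counting are not given in the sources used here. Of the values 100% were whole multiples of 1 read (within 0.1 read), so the reads and the depth of each mouse were recovered. Groups follow the labels' diet and weeks.

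The 9 members and all gene lists were chosen with earlier results of these data known. Values were tested as log2(CPM + 1) with limma 3.58.1 (R 4.3.3) and its mean-variance trend, in 1 fit of the 6 groups with 32 residual degrees of freedom, over the 10343 of 29132 genes with a mean above 2. There were 12 comparisons, two-sided, with Benjamini-Hochberg adjustment over all genes and a threshold of 0.05, and p-values measure the spread between mice. A fold on this scale understates the change of low genes. Alternatives were a pseudocount of 0.5, no filter, TMM factors, median-of-ratios size factors, edgeR 4.0.16 quasi-likelihood and DESeq2 1.42.0 tests on the recovered reads, array weights, each time fitted separately, a replicate block, the macrophage mean as a covariate, the Hspa1a and Hspa1b reads summed and each mouse left out. The members are named in every comparison. Of each list, Hsf1 and Hsf2 and the called genes with the largest rise and fall at each time are named, and the mice named were chosen after their values were seen. Promoter windows are from RefSeq on GRCm38.p6, exon lengths from GENCODE vM21, and members without a window are Hspa8, Hsp90aa1, Hsp90ab1 and Cryab. Of 12 listed macrophage markers, Adgre1 was not used here. Python 3.11.15, numpy 2.4.6 and pandas 2.3.3 were used.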

Additional observations from a re-analysis of the deposited data

Results flagged for a closer look

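Among the 54 sets of values formed by 9 members in 6 groups, 3 held a mouse far from the others by Dixon's ratio, where about 1 in 20 is reached by chance. CD mouse 5 at 34 weeks was the highest of 8 for Hspa1a, at 34.9 CPM, and for Hspa1b, at 11.1 CPM. HFD mouse 2 at 8 weeks was the lowest of 6 for Cryab, at 93.6 CPM.

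The diet difference changed over time for 2 members by the interaction test in limma. That of Cryab changed by −1.73 from 20 to 34 weeks and by −1.77 from 8 to 34 weeks, and that of Hspa8 by 0.58 from 8 to 34 weeks. These 3 results passed the threshold when any mouse was left out, with ranges of −1.97 to −1.57, −2.01 to −1.65 and 0.49 to 0.65.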

How the results depend on the processing

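Depth, at 9275711 reads or more per mouse, left no member near a count of 0, and the spread between 6 to 8 mice set the precision. Over the other settings 314 called values kept direction and call, 41 lost the call and none turned, and of the values that were not called 164 stayed as they were, 14 passed and 17 turned. Cryab was higher at 8 weeks (1.498 to 1.89) and at 20 weeks (1.34 to 1.89) in all of them. The causes of the changes were not tested.

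The number of members called at 8 weeks, 2, was 1 in edgeR and 4 with array weights. At 20 weeks, 5 became 2 with TMM factors, 2 with median-of-ratios size factors and 1 with the macrophage covariate. It became 4 in edgeR and 4 in DESeq2, with Hspa1a and Hspa1b, not called in limma, among them. At 34 weeks 2 became 1 with array weights and 0 with the covariate. With the covariate 3281 and 841 of all 10343 genes were called at 20 and 34 weeks. With array weights 1 member was called in CD and 4 in HFD between 8 and 20 weeks, where 0 were called otherwise, and without a filter 2 in place of 4 were called in HFD between 20 and 34 weeks. The change of the diet difference from 20 to 34 weeks, called for 1 member, was called for 2 with TMM, median-of-ratios, edgeR, DESeq2 and the covariate, and for 3 with array weights. Leaving out 1 mouse gave 1 to 3 calls at 8 weeks, 3 to 6 at 20 weeks and 1 to 3 at 34 weeks; over time 6 to 7 in both CD comparisons with 34 weeks, 2 to 4 in HFD from 20 and 4 to 5 from 8 to 34 weeks; 1 to 2 and 2 to 3 for the changes of the diet difference to 34 weeks from 20 and 8; and 0 elsewhere.

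Directions turned only where no call was made. The Hspa8 difference at 20 weeks was −0.110 with TMM factors, −0.0620 with median-of-ratios, −0.0945 in edgeR, −0.0552 in DESeq2 and −0.184 with the covariate. The Hsp90ab1 difference at 34 weeks was −0.0874 with TMM, −0.0868 with median-of-ratios, −0.0953 in edgeR, −0.0960 in DESeq2, −0.0257 with the replicate block and −0.0079 with the covariate. With the covariate Hspa1a was at −0.0119 at 8 weeks, and Hspa1b at −0.181, Hspb1 at 0.0634 and Cryab at 0.0862 at 34 weeks. Hspa1b was at −0.0297 at 34 weeks with array weights, and Hspa1a at 0.0195 with the pair summed. Leaving out 1 mouse spanned −0.108 to 0.0157 for Hsp90aa1 at 20 weeks, and at 34 weeks −0.0446 to 0.0366 for Hsp90ab1, −0.335 to 0.0854 for Hspa1a and −0.227 to 0.165 for Hspb1.

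Mice with the same replicate number showed no common deviation in the median (90 pairs, r from −0.68 to 0.55, median −0.07), and 30 pairs were above 0.1. Differently numbered mice were not compared, so whether the numbers pair mice is not settled. With the replicate block Dnajb1 at 34 weeks passed (−0.57, adjusted p = 0.0418), Hspa1a in CD from 8 to 34 weeks did not (−0.93, adjusted p = 0.0925), and no other call changed.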
